A study of Homo sapiens with 6 samples.

Results

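The classical cadherins and their catenins are the core of the adherens junction, and 9 of their genes were examined: the cadherins CDH1, CDH2, CDH3, CDH4 and CDH11 and the catenins CTNNA1, CTNNB1, CTNND1 and JUP. They were taken by gene symbol, as members of these gene families, from a count table of 37887 rows. Of these 9 genes, 8 were among the 15355 that passed a filter on low counts and were tested, and CDH11 was not. RNA came from MDA-MB-436, an established triple-negative breast cancer cell line with a BRCA1 mutation. All cells carried the same stable, tetracycline-inducible shRNA against MUC1. The control group was given 0.1% DMSO as vehicle and the shMUC1 group 500 ng/ml doxycycline (DOX), with 3 libraries each. The titles of the vehicle samples name a control shRNA, but their treatment labels and the design text describe the inducible MUC1 line under vehicle, which is how they are treated here. DOX was not given to cells with a control shRNA in the libraries analysed here, so DOX itself and MUC1 silencing cannot be told apart. How long MDA-MB-436 cells were treated is not stated in the labels.

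A classical cadherin reaches across the cell border with its extracellular repeats and binds the same cadherin on the neighbouring cell. Its cytoplasmic tail holds p120-catenin (CTNND1) near the membrane, which slows the removal of the cadherin, and either β-catenin (CTNNB1) or its close relative plakoglobin (JUP) further along. α-Catenin (CTNNA1) links this complex to actin. β-Catenin is also the coactivator of Wnt target genes, whereas plakoglobin is shared with the desmosome, a junction anchored to intermediate filaments. Loss of E-cadherin (CDH1) with gain of N-cadherin (CDH2) is known as the cadherin switch of the epithelial-mesenchymal transition, in which ZEB1, ZEB2, SNAI1 and SNAI2 repress CDH1 through E-box sequences. The cytoplasmic domain of MUC1-C, the subunit of MUC1 that spans the membrane, binds β-catenin.

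Library totals ran from 18678307 to 27825546 counts, and 3 counts, taken as the floor, equalled between 0.109 and 0.161 counts per 1000000 counts (CPM). MUC1 had 93, 84 and 102 counts in control and 72, 51 and 34 in shMUC1 libraries, a log2 fold change of -0.84 (SE 0.214, Benjamini-Hochberg adjusted p = 0.00119 in the edgeR quasi-likelihood test). MUC1 shares 48 exon bases with AL713999.1 on the same strand. As for the labelled line, the receptor gene ESR1 reached at most 12 counts and PGR at most 4 in a library. ERBB2, the other receptor gene expected low, was not near the floor. It stood at 44.7 ± 2.41 CPM in control and 39.0 ± 0.463 in shMUC1 cells (SD, n = 3). The mesenchymal gene VIM stood at 718 ± 26.1 CPM in control and 417 ± 25.2 in shMUC1 cells (SD, n = 3). The labels describe cells cultured in triplicate. If the cultures were not separate, p-values measure only the spread between these libraries.

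Short sequences were searched in the members, and those found in JUP, the catenin that rose most, and in CTNNB1, the one that fell, are shown. Whether they have a part in these changes was not tested. E-boxes were searched as CAGGTG and its reverse complement CACCTG, which covers both strands with no overlap of the matches, in the 250 bases before each start site listed by RefSeq on GRCh38.p14. Entries were found for CDH2, CDH4, CTNNA1, CTNNB1 and JUP, with 11 start sites in all. CDH1, CDH3, CDH11 and CTNND1 were not matched. JUP held a pair of E-boxes, 48 and 37 bases before an alternative start, separated by 5 bases. The stretch lies at chr17:41786008-41786036 on the minus strand, inside an annotated JUP exon, and is shown 5′ to 3′ with the E-boxes in capitals.
JUP E-box pair: tggcccCACCTGccgagCAGGTGagcgca
CDH4 held a single E-box, 10 bases before a start. None was found in the windows of CDH2, CTNNA1 or CTNNB1, or before the other JUP start. At least 1 E-box stood in 17.5% of 35116 windows of the same length, and at least 2 in 2.53%. These matches are a description of letters, and binding of a repressor to them was not tested.

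The second set is a 7-base word in 3′ untranslated regions (3′ UTRs), ATCAGTA, searched on the transcript strand only. It was chosen with results of these data known. Among 13032 tested genes with an annotated 3′ UTR, 14.4% held the word in at least 1 transcript. Their median log2 fold change was -0.11, against 0.03 for the others. As the word was chosen after results were known, these medians are a description only. The 2 sets of genes were not matched for 3′ UTR length or number of transcripts. CTNNB1 held it in 5 of 41 transcripts with a 3′ UTR, at chr3:41240296-41240302 and chr3:41237040-41237046, and MUC1 in 2 of 26, at chr1:155187772-155187778 on the minus strand (GRCh38, GENCODE 29). CDH11 held it in 2 of 4 transcripts, and CDH1, CDH2, CDH3, CDH4, CTNNA1, CTNND1 and JUP in none. CDH2 also fell but held no site, CDH11 could not be tested, and MUC1 is the intended target of the shRNA. The CTNNB1 and MUC1 sites were picked because these genes fell. These sites are shown 5′ to 3′, with 8 flanking bases on each side and the word in capitals.
CTNNB1 first site: tagggtaaATCAGTAagaggtgt
CTNNB1 second site: gacagtttATCAGTAttttttac
MUC1 site: acagttcaATCAGTAtaaaacgg
The sequence of the shRNA is not given here, and any link between it and the word or these sites was not tested.

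Of the 8 members tested, 5 were higher and 2 lower in shMUC1 cells at an adjusted p under 0.05. CDH1, CDH3, JUP, CTNND1 and CTNNA1 rose, CTNNB1 and CDH2 fell, and CDH4 did not pass the test. Among all tested genes, 25.2% were higher and 23.6% lower by this rule. With a fold change over 2 as well, 3 members were higher (CDH1, CDH3 and JUP) and 0 lower, where 2.21% of all tested genes were higher and 3.74% lower. CDH1 entered these counts only through its shMUC1 libraries, since its control libraries alone would have missed the filter on low counts. CPM values did not overlap between groups for the same 7 members, 5 higher and 2 lower, and all tested genes gave 28.1% higher and 26.8% lower. The median log2 fold change of the 8 members was 0.52, beside 0.00058 over all tested genes. In these bulk samples, a change in RNA per cell and a change in the share of cells that express a gene cannot be told apart.

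**Figure D1:**
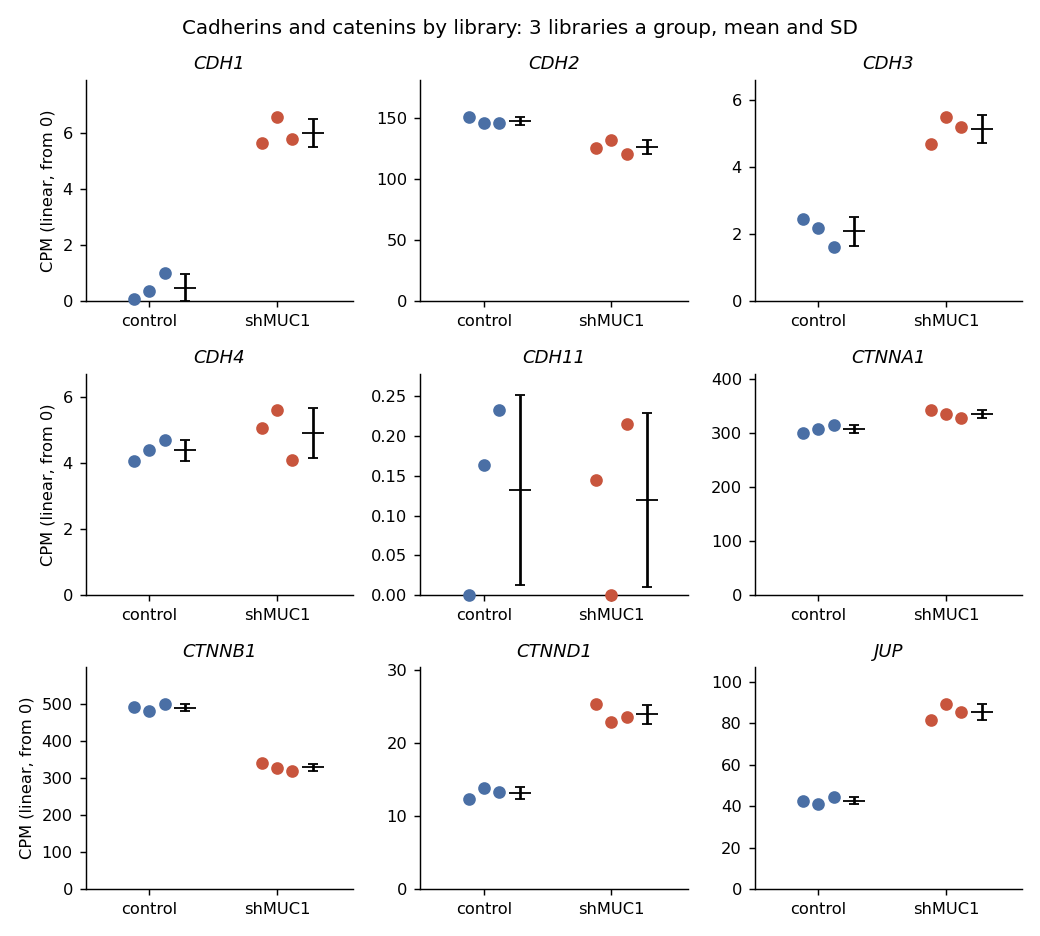
CPM of each of the 9 genes in the 3 control and 3 shMUC1 libraries, 1 panel per gene with its own linear axis from 0; points are libraries, with the mean and SD (n = 3) beside them. CDH1 stood between 0.0912 and 1.01 CPM in control and between 5.65 and 6.60 in shMUC1 cells, whereas CTNNB1 ran from 481 to 499 in control and from 320 to 340 in shMUC1 cells.

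E-cadherin is the cadherin of epithelial junctions, and its gene lies on chromosome 16 (GRCh38, chr16:68737225-68835548, plus strand). CDH1 had 2, 9 and 26 counts in the control libraries and 156, 170 and 108 in the shMUC1 libraries. The corresponding levels were 0.0912, 0.370 and 1.01 CPM in control and 5.65, 6.60 and 5.81 CPM in shMUC1 cells. Every shMUC1 library was above every control library, and the lowest shMUC1 value was 5.61-fold over the highest control value. CDH1 rose by 3.55 on the log2 scale (SE 0.306, 11.7-fold, edgeR adjusted p = 2.50e-12), and 0.104% of all tested genes changed by more. CDH1 passed the filter on low counts only through its shMUC1 libraries, since the control libraries alone would have missed it. Its test and rank are to be read with that limit. The control libraries were uneven: the exact 95% Poisson interval of control replicate 1 ran from 0.011 to 0.33 CPM and that of control replicate 3 from 0.658 to 1.48, an 11.04-fold gap between the 2 values. Without control replicate 3 the log2 fold change was 4.62, and without control replicate 1 it was 3.11. Its direction and call held in all 14 alternative fits, but the SE depended on the method. DESeq2 gave 3.606 with an SE of 0.765 (DESeq2 adjusted p = 1.175e-05), and limma-voom gave 4.016 with an SE of 0.457. Reads were also few on the shMUC1 side, with 434 counts over 3 libraries against 37 in control.

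P-cadherin, the product of CDH3, is a cadherin of basal epithelial layers such as the breast myoepithelium, and its gene lies upstream of CDH1 on the same strand (chr16:68636189-68722616). CDH3 had 54, 53 and 42 counts in control and 130, 142 and 97 in shMUC1 libraries. These counts gave 2.46, 2.18 and 1.63 CPM in control and 4.71, 5.51 and 5.21 CPM in shMUC1 cells. The groups did not overlap, and both cadherin genes of this locus were higher after DOX. CDH3 rose 2.47-fold (log2 fold change 1.31, SE 0.199, edgeR adjusted p = 8.41e-07). On the opposite strand, other genes overlap 11.1% of the exon bases of CDH3 and 5.62% of those of CDH1. The strand setting of the counting was not given in the sources used here, so reads from those genes cannot be set apart.

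N-cadherin, encoded by CDH2 (chr18:27950966-28177446, minus strand), is the cadherin of neural and mesenchymal cells. It stood at 151, 146 and 146 CPM in control and 126, 132 and 121 CPM in shMUC1 libraries. All 3 shMUC1 libraries lay below all 3 control libraries, by a small margin. The mean went from 148 ± 3.16 to 126 ± 5.86 CPM (SD, n = 3), a log2 fold change of -0.22 (SE 0.0402, edgeR adjusted p = 1.52e-05). A larger change was seen in 53.9% of all tested genes. Among the 5 cadherins taken as members, CDH2 thus remained the most abundant transcript in both groups.

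R-cadherin, encoded by CDH4 (chr20:61252426-61940617, plus strand), is a cadherin of retina and brain. CDH4 had 4.06, 4.39 and 4.69 CPM in control and 5.07, 5.59 and 4.09 CPM in shMUC1 libraries, and the groups overlapped because shMUC1 replicate 3 was among the lowest. Its log2 fold change was 0.17 (SE 0.167, edgeR adjusted p = 0.411), with a 95% interval from -0.15 to 0.50. A rise of the size seen for CDH3 lies outside that interval. Cadherin-11, encoded by CDH11 (chr16:64943753-65126112, minus strand), is a mesenchymal cadherin also known from osteoblasts. CDH11 had 0, 4 and 6 counts in control and 4, 0 and 4 in shMUC1 libraries, at or near the floor in each. No change was detectable at this depth: fitted without the filter on low counts, its log2 fold change was -0.20 with an SE of 1.22 (edgeR adjusted p = 0.935).

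β-Catenin was the most abundant member in control cells, and its gene lies at chr3:41194741-41260096 on the plus strand. CTNNB1 had 491, 481 and 499 CPM in control and 340, 327 and 320 CPM in shMUC1 libraries. The shMUC1 values formed a tight group well below the control values. CTNNB1 fell by 0.58 on the log2 scale (SE 0.0319, edgeR adjusted p = 1.25e-17), to 0.671 of the control level. In size, this fall was exceeded by 18.5% of all tested genes.

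Plakoglobin is the only catenin found in both adherens junctions and desmosomes, where it takes the place of β-catenin on the cadherin tail. JUP (chr17:41754604-41786931, minus strand) had 42.3, 41.1 and 44.3 CPM in control and 81.4, 89.2 and 85.5 CPM in shMUC1 libraries. Every shMUC1 library lay far above the control libraries. The mean went from 42.6 ± 1.62 to 85.4 ± 3.90 CPM (SD, n = 3), with a fold change of 2.004 (log2 fold change 1.003, SE 0.053, edgeR adjusted p = 3.15e-18). JUP sat at the fold threshold and was over 2-fold in 7 of 14 alternative fits, over which its log2 fold change ran from 0.97 to 1.04. CDH1 and CDH3 were over 2-fold in all 14.

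p120-Catenin, encoded by CTNND1 (chr11:57753243-57819546, plus strand), binds the juxtamembrane part of the cadherin tail. CTNND1 had 12.3, 13.8 and 13.3 CPM in control and 25.3, 22.8 and 23.6 CPM in shMUC1 libraries, with no overlap. CTNND1 rose 1.82-fold (log2 fold change 0.86, SE 0.0899, edgeR adjusted p = 2.92e-10), and 8.78% of all tested genes changed by more. Its level is uncertain: 408 of its exon bases, or 4.64%, are shared with AP001931.1 and the readthrough gene TMX2-CTNND1, which was listed at 0 in all 6 libraries. How reads on the shared bases were assigned is not given in the sources used here.

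α-Catenin, the product of CTNNA1 (chr5:138610967-138935034, plus strand), changed least among the members that passed the test. CTNNA1 had 301, 307 and 315 CPM in control and 342, 334 and 327 CPM in shMUC1 libraries. The groups stood apart, by a narrow margin. Its log2 fold change was 0.12 (SE 0.0325, edgeR adjusted p = 0.00209), and 72.9% of all tested genes changed by more. Its pseudogene CTNNA1P1 had at most 12 counts in any library.

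**Figure D2:**
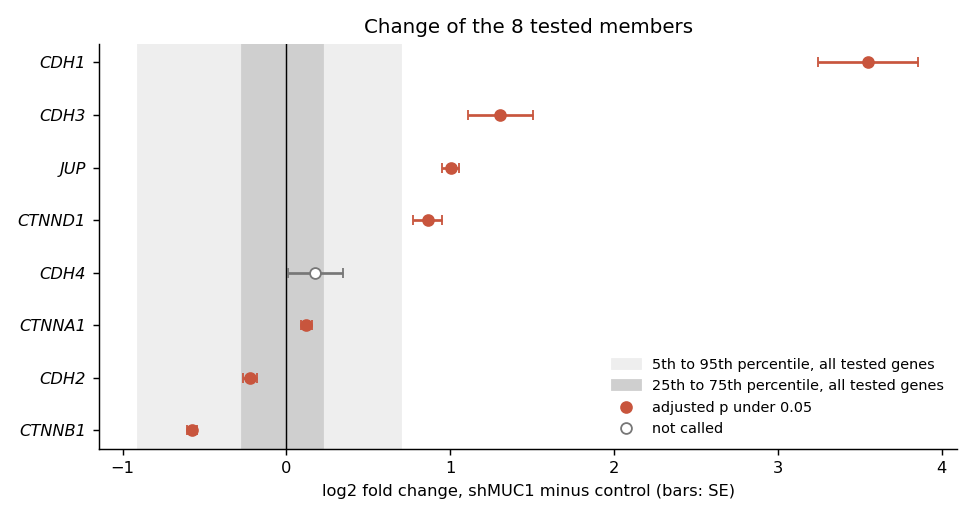
Log2 fold change (shMUC1 minus control, edgeR) of the 8 tested members, with bars of 1 SE, filled points at an adjusted p under 0.05 and an open point for CDH4; grey bands span the 5th to 95th and the 25th to 75th percentile of all tested genes. CDH1 (3.55), CDH3 (1.31), JUP (1.003) and CTNND1 (0.86) lay beyond the wider band, and CTNNB1 (-0.58) and CDH2 (-0.22) lay to the left of 0.

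To compare levels between genes, CPM was divided by the exon length in kilobases, merged over all annotated transcripts of a gene (CPM per kb). Which transcripts the cells express was not measured, so levels and shares in CPM per kb depend on these lengths. In control cells the levels ran in the order CTNNB1 (41.1 CPM per kb), CTNNA1 (34.8), CDH2 (29.8), JUP (8.61), CTNND1 (1.496), CDH4 (0.596), CDH3 (0.335), CDH1 (0.0792) and CDH11 (0.00988). The libraries of neighbours in this order were apart except for CDH1 and CDH11. In shMUC1 cells CTNNA1 came first (37.9 CPM per kb), ahead of CTNNB1 (27.6), CDH2 (25.5) and JUP (17.3). CTNND1 followed at 2.72 CPM per kb, and CDH1 at 0.974 moved ahead of CDH3 (0.825) and CDH4 (0.669). The libraries of CDH3 and CDH4 then overlapped, whereas those of CTNNB1 and CDH2 only just did not, at 26.81 and 26.75 CPM per kb.

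Summed over the 5 cadherins, the level was 31.5, 30.5 and 30.6 CPM per kb in control and 27.8, 29.5 and 26.7 in shMUC1 libraries. Over the 4 catenins it was 86.0 ± 1.70 in control and 85.4 ± 1.42 in shMUC1 cells (SD, n = 3). In CPM per kb, the sum of the catenins thus differed by less than the spread between libraries, while its makeup differed. Both depend on the exon lengths, 11927 bases over 56 transcripts for CTNNB1 and 4942 over 12 for JUP. Before this division, mean CPM went from 490 to 329 for CTNNB1 and from 307 to 334 for CTNNA1. It went from 42.6 to 85.4 for JUP and from 13.2 to 23.9 for CTNND1, so in CPM the sum was lower in shMUC1 cells. In CPM per kb, CTNNB1 made up 47.8% ± 0.479 of the catenin sum in control and 32.3% ± 0.559 in shMUC1 cells. JUP made up 10.01% ± 0.199 and 20.2% ± 1.04, CTNNA1 40.5% ± 0.465 and 44.3% ± 0.350, and CTNND1 1.74% ± 0.106 and 3.18% ± 0.153 (SD, n = 3). Between the alternative partners of the cadherin tail, the share of JUP in the sum of JUP and CTNNB1 was 17.2%, 17.1% and 17.6% in control and 36.7%, 39.7% and 39.2% in shMUC1 libraries. Among the cadherins, CDH2 still held 91.2% ± 0.347 of the sum in shMUC1 cells, after 96.7% ± 0.241 in control. The share of CDH1 was 0.259% ± 0.249 in control and 3.48% ± 0.172 in shMUC1 cells, and that of CDH3 1.08% ± 0.207 and 2.95% ± 0.211.

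**Figure D3:**
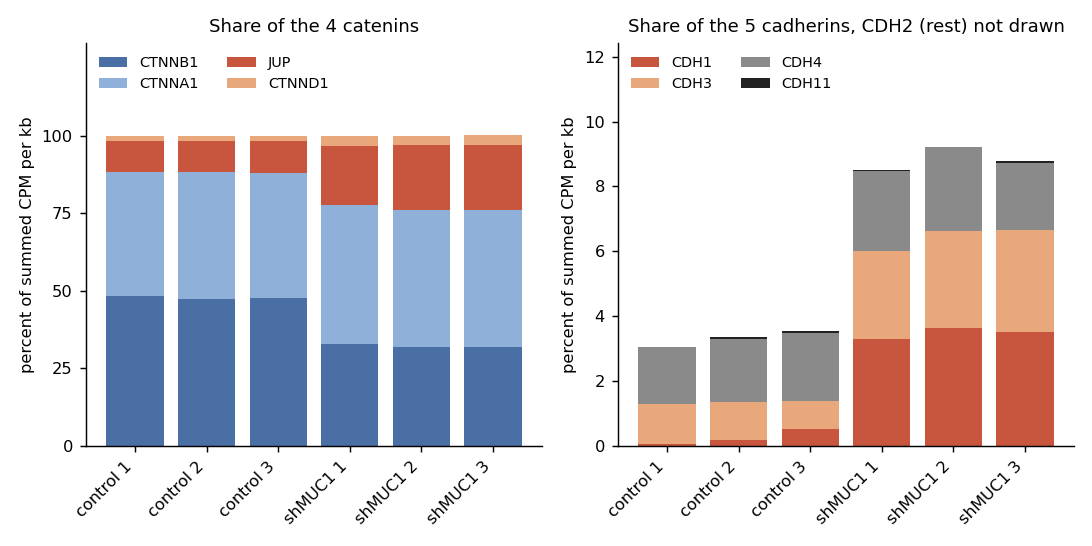
Share of each gene in the summed CPM per kb of the 4 catenins (left) and of the 5 cadherins (right), in percent, as stacked bars from 0 for each of the 6 libraries; CDH2, which makes up the rest of the cadherins, is not drawn. JUP widened from 10.01% to 20.2% of the catenin sum on average, and CDH1 from 0.259% to 3.48% of the cadherin sum.

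Ratios of partner genes within a library were compared as log2 values of counts with 0.5 added. The log2 ratio of CDH1 to CDH2 was -10.37, -8.54 and -7.15 in control and -4.47, -4.32 and -4.37 in shMUC1 libraries, a difference of 4.30. That of JUP to CTNNB1 was -3.54, -3.55 and -3.49 in control and -2.06, -1.87 and -1.90 in shMUC1 libraries, a difference of 1.58, or 2.99-fold. Both ratios were higher in every shMUC1 library than in any control library. The ratio of CTNND1 to CTNNB1 differed by 1.44 and that of CTNNA1 to CTNNB1 by 0.70 on the log2 scale, again with no overlap. For these 4 ratios the two-sided exact permutation test gave p = 0.1, the smallest value that 3 against 3 libraries allow, and 0.125 after adjustment over 5 ratios. The ratio of CDH11 to CDH2 differed by 0.07 (exact permutation p = 0.9).

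The neighbours of these genes in the junction were examined in 9 lists. These lists were written with earlier results of these data known and are described by counts and medians alone, to be read against the 25.2% of all tested genes that were higher and the 23.6% that were lower. Among 14 other classical or related cadherins, 3 were tested. CDH24 was higher (log2 fold change 0.45), and CDH13, a cadherin without a cytoplasmic tail, and CDH18 were lower (-0.43 and -1.06). CDH18 had few counts, 37, 24 and 29 in control and 14, 25 and 5 in shMUC1 libraries. It passed the filter on low counts only through the control group, which limits its call. The median of these 3 genes was -0.43, but it was -1.03 without shMUC1 replicate 2 and -0.0125 at a mean of at least 50 counts. Of 5 tested other catenins and close relatives, CTNNBIP1, an inhibitor of β-catenin binding to TCF factors, was higher (0.63), CTNND2 was lower (-1.25), and 3 did not pass the test.

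Desmosome components, some of which bind JUP as well, held 9 tested genes of 14. Of these, 6 were higher, 1 was lower (DSC3, a desmosomal cadherin, log2 fold change -0.47) and 2 did not pass the test, with a median of 0.59. DSP, or desmoplakin, which ties JUP to intermediate filaments, had 97.2, 97.5 and 101 CPM in control and 284, 258 and 269 CPM in shMUC1 libraries. The groups lay far apart, and DSP rose by 1.46 on the log2 scale (SE 0.0394, edgeR adjusted p = 4.20e-27). The plakophilins PKP3 and PKP2, desmosomal relatives of p120-catenin, rose by 1.41 and 0.77. DSG4 was at 0 in all 6 libraries, and DSG1, DSG3, DSC1 and EVPL were not tested for low counts.

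Among 21 adaptors and nectins of the adherens junction, 9 were higher, 5 lower and 7 did not pass the test, with a median of 0.13. Over all tested genes 25.2% were higher and 23.6% lower, so only the count of lower genes was near its share. The leading genes were NECTIN4 (1.73), LIMA1 (0.69) and NECTIN2 (0.53). NECTIN4 had few counts, 8, 10 and 4 in control and 24, 32 and 18 in shMUC1 libraries. It passed the filter on low counts only through the shMUC1 group, so its call and rank are to be read with that limit. Of 24 genes that process, move or phosphorylate cadherins, 7 were higher and 6 lower, near the shares over all tested genes, with a median of 0.05. There ARF6, a GTPase of cadherin endocytosis, and NUMBL were lower (-0.59 and -0.49), and PTPN1, a phosphatase that acts on the cadherin complex, was higher (0.46). In the destruction complex and TCF partners of β-catenin, 3 of 17 were higher, 3 lower and 11 did not pass the test, with a median of 0.03. BCL9L, a coactivator of β-catenin, was higher (0.75), and TCF7L1 and PYGO1 were lower (-0.63 and -0.54). AXIN2, a feedback target of Wnt signalling, had 0.867, 0.944 and 2.13 CPM in control and 0.760, 0.466 and 0.860 CPM in shMUC1 libraries. Its groups did not overlap, by a narrow margin, and it did not pass the test (log2 fold change -0.94, SE 0.403, edgeR adjusted p = 0.0508).

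The repressors of CDH1 did not move in 1 direction. Of 8 tested, 3 were lower, 2 higher and 3 did not pass the test, with a median of -0.11. ZEB2 went from 161 ± 4.92 to 45.2 ± 1.77 CPM (SD, n = 3), a log2 fold change of -1.83 (SE 0.0453, edgeR adjusted p = 4.17e-28), and ZEB1 changed by -0.97. In contrast, SNAI2 went from 12.4 ± 0.974 to 27.4 ± 0.745 CPM and rose by 1.14 (SE 0.0879, edgeR adjusted p = 1.16e-13). TCF4 was also lower (-0.61) and SNAI1 higher (0.37). Of 5 tested epithelial transcription factors, ELF3 (2.09), FOXA1 (0.37) and KLF4 (0.21) were higher and 2 did not pass the test, with a median of 0.37, and GRHL2 and OVOL1 were at 0 in all libraries.

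Markers of an epithelial line moved in the direction of CDH1 in part. Of 12 listed, 7 were tested, of which 6 were higher and 1 did not pass the test, with a median of 1.31, led by SPINT1 (3.52), MAL2 (2.79) and CDS1 (1.67). SPINT1 had 4, 0 and 8 counts in control and 59, 66 and 20 in shMUC1 libraries. Its control level was near the floor, and it passed the filter only through the shMUC1 group. The summed level of the 12 markers ran from 101 to 104 CPM in control and from 441 to 482 in shMUC1 libraries, or from 48.2 to 51.5 and from 86.2 to 92.7 without MAL2. Some defining epithelial genes were near the floor in both groups and were not tested. KRT19 had 2, 0 and 2 counts in control and RAB25 0, 2 and 4, and both were at 0 in all shMUC1 libraries. ESRP1 was at 0 in all control libraries and had 0, 4 and 3 counts in shMUC1 libraries. The part of these genes in the rise of CDH1 was not tested.

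**Figure D4:**
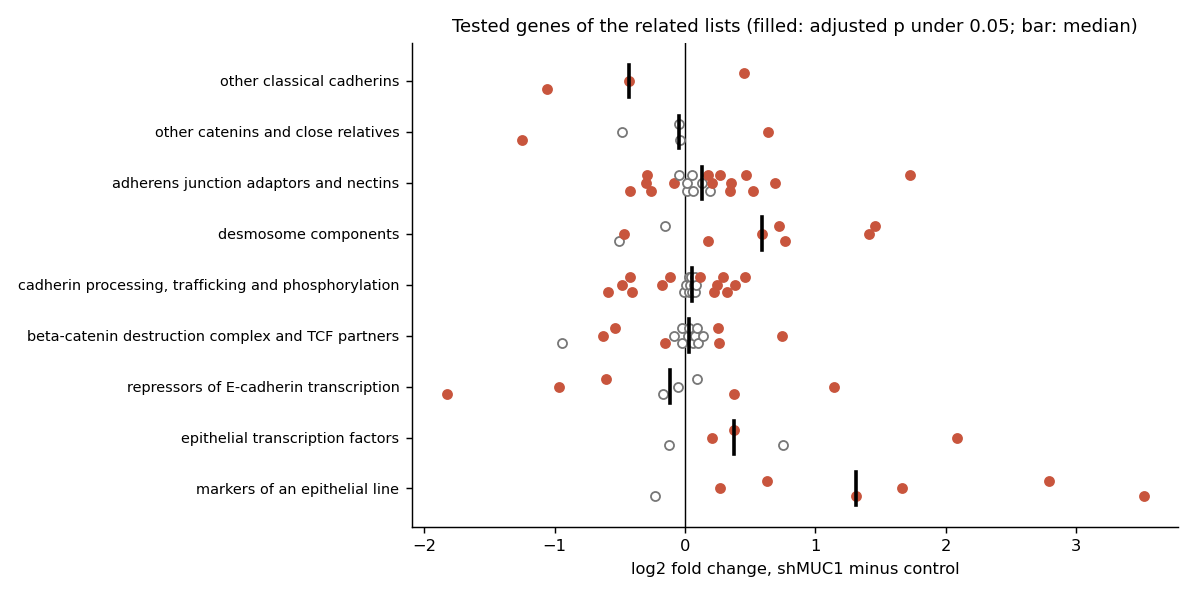
Log2 fold change (shMUC1 minus control, edgeR) of each tested gene in the 9 lists of related genes, 1 row per list, with filled points at an adjusted p under 0.05, open points otherwise and a black bar at each median. The median was 1.31 for the epithelial line markers and 0.59 for the desmosome components.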

How the data were processed

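The members and the lists of related genes were chosen with earlier results of these data known. The values are counts of reads per gene, deposited by the authors without normalization, with 1 column per library and no pooling. Libraries were made with a stranded mRNA kit. The submitters' processing notes name CASAVA 1.8.2, STAR 2.7.9a, featureCounts, DESeq2 1.24.0 and GRCh38.p7, while the annotation release and the strand setting were not given in the sources used here. Among values from 1 to 20 counts, between 68.8% and 70.5% were even in each library, so counting intervals, which cover counting error only, may be too narrow, and halved counts were tried.

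The test was edgeR's quasi-likelihood test (edgeR 4.0.16, R 4.3.3; TMM scaling, filterByExpr, group as the only term, two-sided, Benjamini-Hochberg adjustment over 15355 genes). The SE given with edgeR values was the absolute log2 fold change divided by the square root of the F statistic. CPM used TMM-scaled library sizes. Groups followed the sample titles. Within groups, chi-square per degree of freedom between libraries was at least 2.79 (genes with 20 or more summed counts), and none was counted as a duplicate. Symbols were matched to GENCODE 29, where 98.1% of rows were found, for gene models and exon lengths, and promoter sequences came from RefSeq (GRCh38.p14). Exact permutation tests were run on 5 ratios. All members, MUC1, the 3 largest called changes of each list and genes needed to account for a list were named. Genes named with a pattern like CDH1 or JUP had the highest Pearson correlation of log2 CPM, with a prior count of 2. AXIN2, SNAI1, TCF4 and FN1 were named after their values were seen. 1 gene of the epithelial line markers is not reported here and was left out of that list. Fits were tested on simulated data. Alternatives were each library left out, a replicate block, DESeq2 1.42.0, limma-voom (limma 3.58.1), scaling by DESeq2 size factors or by library totals, no filter or a filter at a mean of 50 counts, halved counts, a fold over 1.5 and, for ratios, 1 count added in place of 0.5.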

Additional observations from a re-analysis of the deposited data

How the results depend on the processing

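In each of 14 alternative fits, all 8 tested members and MUC1 kept their direction and call. Leaving out 1 library gave log2 fold changes from 3.11 to 4.62 for CDH1, with the highest value without control replicate 3. Counts of genes with a fold over 2 were 177 higher and 275 lower at a mean of at least 50 counts, where fewer genes were tested, and 846 and 1280 with a fold over 1.5. Replicate numbers did not pair the libraries (correlations of deviations 0.005, -0.032 and -0.038). With a replicate block, log2 fold changes were 3.63 for CDH1, -0.22 for CDH2, 0.86 for CTNND1 and -0.58 for CTNNB1, 3885 genes were higher and 3591 lower, and no call on a member changed.

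Some list medians moved. At a mean of at least 50 counts, they were -0.0125 for other classical cadherins, 0.0716 for adaptors and nectins, 0.0277 for cadherin processing and 0.27 for epithelial transcription factors. With no filter, they were 0.78 for the desmosome, 0.0606 for cadherin processing and 0.98 for epithelial line markers, and library totals gave 0.0285 for cadherin processing. With 1 library left out, ranges were -1.03 to -0.41 for other classical cadherins (-1.03 without shMUC1 replicate 2, -0.82 without control replicate 2 and -0.69 without shMUC1 replicate 1), -0.11 to -0.014 for other catenins, 0.0666 to 0.16 for adaptors and nectins, 0.0412 to 0.0635 for cadherin processing, 0.00665 to 0.0618 for β-catenin partners, 0.31 to 0.51 for epithelial transcription factors and 0.99 to 1.55 for epithelial line markers. The difference in the log2 ratio of CDH11 to CDH2 ran from -1.03 to 1.22, with -1.03 without control replicate 1, -0.35 without shMUC1 replicate 1 and -0.67 without shMUC1 replicate 3. The cause was not tested. CDH11, at or near 3 counts per library, is limited by depth. No scaling moved the median of all genes by over 0.1.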

Other observations

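Over the 6 libraries, the genes whose log2 CPM followed CDH1 most closely by Pearson's r were CRYM (0.9987), HAX1 (0.9965) and RPP25L (0.9964), and 1547 genes were above 0.9. For JUP they were PRKAR1B (0.9997), C6orf132 (0.9994) and SFR1 (0.9993), and 2614 genes were above 0.9. These values describe 6 points that fall into 2 groups, and they are given with no test.

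Genes that identify the line did not all move away from a mesenchymal pattern. AXL, a receptor tyrosine kinase of mesenchymal cells, went from 382 ± 1.06 to 247 ± 6.75 CPM and SPARC, a matrix protein, from 1.55 ± 0.577 to 0.393 ± 0.0343 CPM, whereas FN1, which encodes fibronectin, went from 962 ± 17.7 to 1285 ± 11.4 CPM (SD, n = 3).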
